A study of Mus musculus with 18 samples.

Results

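The insulin-like growth factor (IGF) system was described in MC38 tumours through 9 listed genes, namely the ligands Igf1 and Igf2, the signalling receptor Igf1r and the binding proteins Igfbp2, Igfbp3, Igfbp4, Igfbp5, Igfbp6 and Igfbp7. They are 9 of 18193 genes that had a probe set mapped to a single gene symbol. Igf1 drew attention to the list because it stood higher with both drugs than in control, so the list was chosen by the values of that comparison, which are given as a description, and the calls counted there support nothing. MC38 is a mouse colon carcinoma line. In this experiment the cells, in PBS and Matrigel, were injected subcutaneously into C57BL/6-Ly5.1 mice aged 6 to 12 weeks, and tumour pieces were taken on day 22. Control mice (n = 5) received the vehicle MCT and a control IgG, the anti-CD40 group (n = 4) vehicle and the agonist antibody CD40 mIgG1, the MEKi group (n = 5) the MEK inhibitor GDC-0623 at 30 mg/kg every day and the control IgG, and the MEKi/CD40 group (n = 4) the inhibitor and the agonist antibody. Every mouse was injected with an antibody on treatment days 3, 5 and 7 and again on the day before sampling. Each of the 18 arrays came from a different animal, and values are log2 signals after robust multichip averaging (RMA).

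IGF1 and IGF2 are secreted peptides that activate the receptor tyrosine kinase IGF1R, which feeds the PI3K/AKT and the RAS/MEK/ERK pathways. IGF2R, the cation-independent mannose-6-phosphate receptor, takes up IGF2 for breakdown in lysosomes. The binding proteins hold the ligands outside the cell, where they can block them, store them or carry them to the receptor, and proteases such as PAPPA release the ligands again. In many tissues fibroblasts and macrophages are sources of IGF1, and MEK is the kinase that GDC-0623 inhibits. CD40 is an activating receptor of antigen-presenting cells.

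The arrays were alike in their overall signal, with upper quartiles of 8.14 to 8.25. Between 52.7% and 54.6% of probe sets lay at the floor, meaning below 3 or within 0.3 of a low value that the probe set repeated, where the true signal is unknown. Of 26 probe sets of the 9 genes, 4 were at the floor on all arrays. For each gene the brightest probe set is reported. The marker list of fibroblasts (10 genes, mean log2 signal) ranged over 9.29 to 9.97 in control, 9.69 to 10.57 with anti-CD40, 10.79 to 11.48 with MEKi and 12.45 to 12.85 with MEKi/CD40. The 6 measured adipocyte markers ranged over 3.24 to 3.68 in control, 3.34 to 5.35 with anti-CD40, 3.74 to 4.74 with MEKi and 3.59 to 10.6 with MEKi/CD40. The highest were 10.6 in MEKi/CD40 tumour 2, 6.38 in MEKi/CD40 tumour 4 and 5.35 in anti-CD40 tumour 3. Every MEKi tumour lay above every control tumour in this score. Cidec, Lep, Retn and Plin4 were at the floor in all control and all MEKi tumours, so this order rests on the remaining measured markers. Against control 1 of the 6 was called higher with MEKi (limma, 3.99% of all probe sets) and 0 with MEKi/CD40 (5.5%). MEKi/CD40 tumour 4 also held skeletal muscle markers at 9.02, against at most 3.21 in every other tumour. Of the 5 epithelial markers, Epcam, Krt8, Krt18 and Krt19 were at the floor on all arrays, while Cdh1 was above it on all, at 6.15 to 6.89 in control and 4.35 to 5.61 with MEKi/CD40 (limma, adjusted p = 0.0349), so of this list the data show Cdh1 alone. Numbers in the sample titles fell into a low series (control tumours 1 and 2, MEKi tumours 1 and 2 and both antibody groups) and a high series (control and MEKi tumours 3 to 5), and the sources used here do not say what these numbers stand for. A tumour piece mixes cancer, stromal and immune cells, so a larger number of cells of a type and more RNA per cell cannot be told apart here.

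The levels of the 9 genes in the single tumours ordered the groups in the same way for most members. MEKi/CD40 had the highest group mean in 8 of the 9, with MEKi next, and the lowest mean for Igfbp3. Control and anti-CD40 overlapped in all 9 genes.

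**Figure D1:**
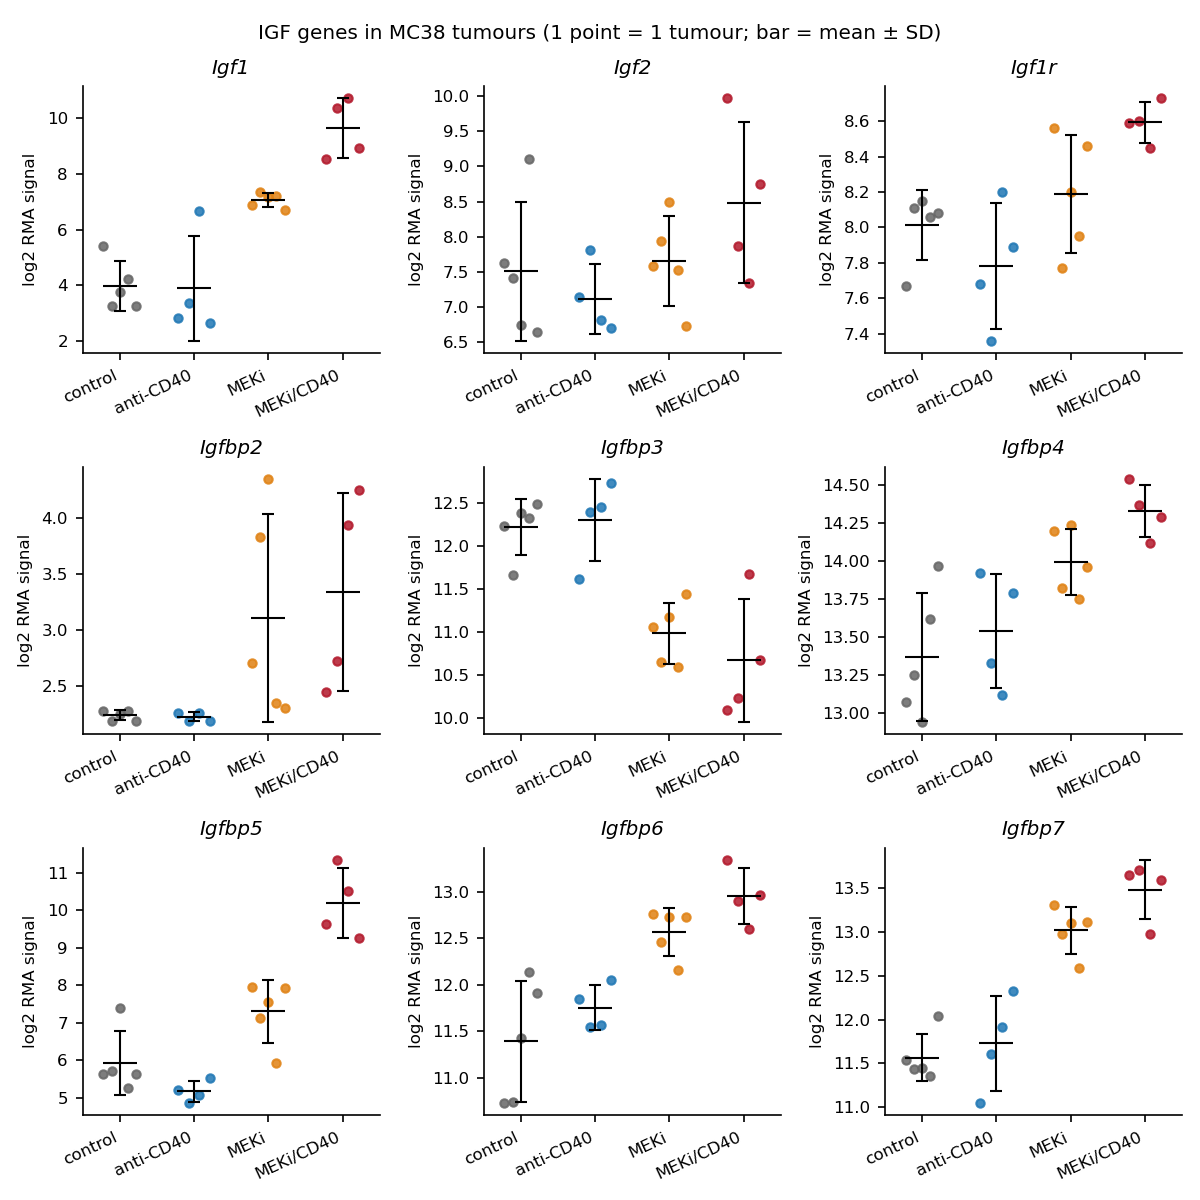
Log2 RMA signal (vertical axis, a separate scale for each gene) of the 9 IGF genes in each tumour of the 4 groups (horizontal axis), with the mean ± SD as bars. The MEKi/CD40 tumours lie above all control tumours for 7 genes (for Igfbp2 partly with values at the floor, which have no order), and Igfbp3 is the only gene with its lowest group mean in MEKi/CD40.

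Igf1, the ligand that mediates much of growth hormone action, had the widest range of the list. Its log2 signal (probe set 1437401_at) was 5.42, 3.24, 3.75, 4.21 and 3.25 in the control tumours and 2.84, 3.38, 6.67 and 2.65 with anti-CD40. With MEKi it was 6.88, 7.35, 7.16, 7.20 and 6.72, and with MEKi/CD40 it was 8.54, 10.38, 10.72 and 8.93. Every MEKi tumour lay above every control and every anti-CD40 tumour, and every MEKi/CD40 tumour lay above every MEKi tumour. The group means were 3.97 ± 0.90 (SD, n = 5) in control, 3.89 ± 1.88 (n = 4) with anti-CD40, 7.06 ± 0.26 (n = 5) with MEKi and 9.64 ± 1.07 (n = 4) with MEKi/CD40. Igf1 was thus 50.9-fold higher with MEKi/CD40 than in control (log2 difference 5.67 ± 0.64, SE), 8.5-fold higher with MEKi (3.09 ± 0.41) and not clearly different with anti-CD40 (-0.09 ± 0.92). The last value rests on anti-CD40 tumour 3, without which it was -1.02, and 2 of the 4 anti-CD40 values were at the floor. In control, 3.24, 3.25 and 3.75 lay close above the floor limit of 3, so the folds against control are uncertain. Between MEKi/CD40 and MEKi the log2 difference was 2.58 ± 0.48, and between MEKi/CD40 and anti-CD40 it was 5.76 ± 1.05.

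Only the comparison of MEKi with anti-CD40 uses no tumour of the groups that drew attention to Igf1, so Igf1 was tested there alone. The log2 difference was 3.18 ± 0.82 (5 against 4 tumours). In limma the unadjusted p was 0.0054, which after adjustment over all 45037 probe sets did not pass the threshold (adjusted p = 0.0720). The exact permutation test of this gene alone, 2-sided over 126 splits, gave p = 0.00794, the smallest it can give. That p is not adjusted, so it compares with the unadjusted limma p and not with the adjusted one. Much of the spread lay in anti-CD40 tumour 3, at 6.67 against 2.65 to 3.38 in the other anti-CD40 tumours, which also had the highest adipocyte score of its group. Over 13 other settings the adjusted p lay between 0.00836 and 0.419 and was under 0.05 in 6. The lowest came without that tumour, at a difference of 4.11, which supports nothing by itself, since it leaves out the anti-CD40 tumour nearest to MEKi and 2 of the 3 anti-CD40 values left were at the floor.

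All 4 probe sets of Igf1 gave the same order of the 2 inhibitor groups above the other 2. The dimmest of them in control, 1434413_at, went from 2.92 ± 0.48 in control and 2.86 ± 1.02 with anti-CD40 to 5.04 ± 0.62 with MEKi and 7.99 ± 1.12 with MEKi/CD40. Here 4 of the 5 control values lay below 3, so that control mean sits at the floor. The brightest probe set gave the largest differences from control. The other 3 were 14.7-, 23.4- and 33.5-fold higher with MEKi/CD40 and 2.68-, 5.01- and 4.34-fold higher with MEKi, in the order 1419519_at, 1452014_a_at and 1434413_at, and the mean over the probe sets of Igf1 was 2.24 higher with MEKi on the log2 scale.

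**Figure D2:**
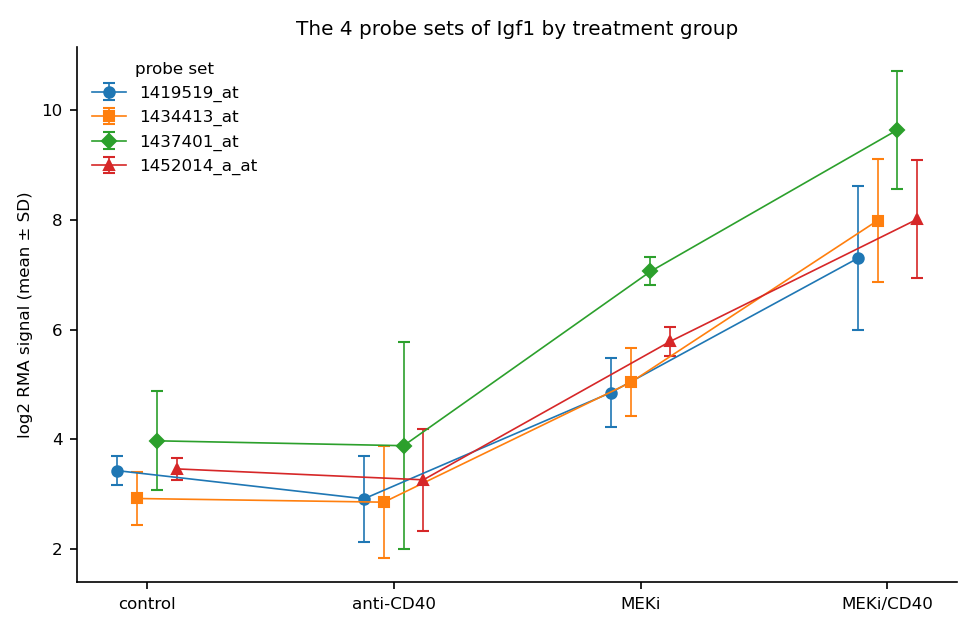
Mean log2 RMA signal ± SD (vertical axis) of the 4 probe sets of Igf1 in the 4 treatment groups (horizontal axis); lines join the means of a probe set. All 4 lie higher with MEKi than in control and anti-CD40 and higher still with MEKi/CD40, and 1437401_at is the brightest.

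Igf1 lies on chromosome 10 at 87858265 to 87937047 (GRCm38.p6, plus strand). Of the 250 bases before a start site of Igf1 in RefSeq, a stretch of 30 bases is shown because it holds the only match, in capitals, to the letters TGANTCA, the motif of AP-1, a factor that acts downstream of MEK and ERK. The window lies within the interval of the gene, so other Igf1 transcripts start before it. The stretch is chr10:87861063-87861092.

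Igf1: gagctggaactTGAATCActattctggata

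On either strand, 6.75% of all 32851 windows of 250 bases before a RefSeq start hold this motif. The match is a description of these letters, not of binding.

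Igf2, the second ligand, is imprinted and best known from fetal growth. Its values overlapped between all groups. They were 7.63, 7.42, 6.74, 9.11 and 6.65 in control, 7.15, 7.81, 6.81 and 6.71 with anti-CD40, 7.58, 7.94, 8.49, 7.53 and 6.73 with MEKi, and 9.97, 7.87, 7.35 and 8.75 with MEKi/CD40. The MEKi/CD40 mean stood 0.98 ± 0.69 above control on the log2 scale, less than the spread between the MEKi/CD40 tumours (SD 1.15), and no comparison in which Igf2 was tested passed the threshold. Another Igf2 probe set, 1415931_at, was at the floor on all arrays.

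Igf1r, the receptor through which both ligands signal, moved little. The tumours gave 7.67, 8.11, 8.15, 8.06 and 8.08 in control, 7.68, 7.36, 8.20 and 7.89 with anti-CD40, 8.56, 7.77, 8.20, 7.95 and 8.46 with MEKi, and 8.59, 8.60, 8.45 and 8.73 with MEKi/CD40. The MEKi/CD40 tumours lay above all control and all anti-CD40 tumours, and MEKi overlapped with every group. Igf1r rose with MEKi/CD40 against anti-CD40 by 0.81 ± 0.18 (1.75-fold, limma, adjusted p = 0.0368), a call that stood in 1 of 8 fits with a tumour left out and was lost without the 3 tumours of highest adipocyte score (0.88, adjusted p = 0.193). The probe sets disagreed. Probe set 1452982_at had group means of 7.81 (control), 7.55 (anti-CD40), 8.07 (MEKi) and 8.30 (MEKi/CD40), whereas 1426565_at stayed at 7.94, 7.79, 7.91 and 7.92.

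Among the binding proteins Igfbp5, a matrix-bound protein of mesenchymal cells, stood out beside Igf1. Its log2 signal was 5.64, 5.71, 7.40, 5.26 and 5.65 in control and 5.21, 4.87, 5.07 and 5.54 with anti-CD40. With MEKi it was 7.96, 7.14, 7.55, 5.92 and 7.94, and with MEKi/CD40 it was 9.64, 11.33, 10.51 and 9.25. The MEKi/CD40 tumours were clear of all other tumours, and MEKi overlapped with control through control tumour 3 alone, which lay above MEKi tumours 2 and 4. Against control the MEKi/CD40 mean was 4.25 ± 0.58 higher (19-fold, described only). Igfbp5 rose 32.2-fold with MEKi/CD40 against anti-CD40 (log2 5.01 ± 0.47, limma, adjusted p = 0.00325), a call kept in 8 of 8 fits with a tumour left out but lost without the 3 tumours of highest adipocyte score (4.87, adjusted p = 0.0566). It rose with MEKi against anti-CD40 by 2.13 ± 0.43 (adjusted p = 0.0394), kept in 1 of 9 such fits. Against control the MEKi difference of 1.37 ± 0.52 did not pass (adjusted p = 0.167). Between MEKi/CD40 and MEKi the groups did not overlap, and the difference of 2.88 ± 0.58 missed the threshold (adjusted p = 0.0521).

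Igfbp5 was also the only one of 8 tested members with an interaction, the test of whether both drugs together differ from the 2 drugs' own log2 effects added up, where 2.64% of all probe sets were called. This test includes the difference between MEKi/CD40 and control that chose the list, so the call is not independent of that choice. The interaction was 3.64 ± 0.73 (limma over 18 arrays, adjusted p = 0.0188), positive in each of the 18 fits that left out a tumour, with a highest adjusted p of 0.0441. It was 3.5 (adjusted p = 0.0529) without the 3 tumours of highest adipocyte score, and 3.14 (adjusted p = 0.30) in the tumours with low title numbers alone. The interaction of Igf1 was 2.67 ± 1.05, given as a description. The reported probe set of Igfbp5, 1452114_s_at, is of a kind that can share sequence with other transcripts, and 1422313_a_at was at the floor on all arrays.

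Igfbp7, a secreted protein of vessels and fibroblasts that binds insulin and IGFs weakly, rose in all 3 comparisons of an inhibitor group with a group without the inhibitor in which it was tested. It was at 11.54, 11.44, 11.45, 11.36 and 12.04 in control and at 11.05, 11.61, 11.92 and 12.33 with anti-CD40. The MEKi tumours had 13.31, 12.98, 13.10, 12.59 and 13.11 and the MEKi/CD40 tumours 13.65, 13.70, 12.98 and 13.59. All inhibitor-treated tumours lay above all others. Igfbp7 rose 2.74-fold with MEKi against control (log2 1.45 ± 0.17, limma, adjusted p = 0.00493), in 10 of 10 fits with a tumour left out and with the title number series as a block (adjusted p = 0.0114). Within the low series the difference was 1.66 (adjusted p = 0.250) and within the high series 1.32 (adjusted p = 0.265). It rose 3.37-fold with MEKi/CD40 against anti-CD40 (1.75 ± 0.31, adjusted p = 0.0171; 4 of 8 such fits, and 1.65 with an adjusted p of 0.304 without the 3 tumours of highest adipocyte score) and 2.45-fold with MEKi against anti-CD40 (1.29 ± 0.27, adjusted p = 0.0406; 2 of 9). A second probe set, 1423585_at, had group means of 5.12, 5.46, 7.23 and 7.79 in the order control, anti-CD40, MEKi and MEKi/CD40.

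Igfbp3, the main carrier of IGFs in serum, was the member that fell. Its values were 12.23, 11.66, 12.38, 12.33 and 12.49 in control and 11.62, 12.40, 12.45 and 12.73 with anti-CD40. With MEKi they were 11.06, 10.65, 11.18, 10.60 and 11.44, and with MEKi/CD40 they were 10.10, 10.24, 11.68 and 10.68. The MEKi tumours lay below all control tumours, while MEKi/CD40 tumour 3 reached into the control range. Igfbp3 fell by 1.23 ± 0.21 with MEKi against control (2.35-fold lower, limma, adjusted p = 0.0146), in 10 of 10 fits with a tumour left out and with the series as a block (adjusted p = 0.0187). Within the low series the difference was -1.09 (adjusted p = 0.494) and within the high series -1.33 (adjusted p = 0.247). It also fell by 1.31 ± 0.27 with MEKi against anti-CD40 (adjusted p = 0.0402; 2 of 9 fits). With MEKi/CD40 the mean stood lower than control by 1.54 ± 0.35, and against anti-CD40 the difference of -1.63 ± 0.42 missed the threshold (adjusted p = 0.0577). The second probe set, 1458268_s_at, had group means of 10.91, 11.03, 9.65 and 9.12 in the same order of groups.

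Igfbp6, which prefers IGF2 as its ligand, was at 10.73, 10.74, 11.43, 12.14 and 11.91 in control and at 11.85, 11.55, 11.57 and 12.05 with anti-CD40. It was at 12.76, 12.46, 12.73, 12.16 and 12.73 with MEKi and at 13.34, 12.90, 12.60 and 12.97 with MEKi/CD40. Both inhibitor groups were clear of both other groups. Igfbp6 rose with MEKi/CD40 against anti-CD40 by 1.20 ± 0.19 (2.29-fold, limma, adjusted p = 0.0120), in 8 of 8 fits with a tumour left out but not without the 3 tumours of highest adipocyte score (1.15, adjusted p = 0.256), and with MEKi against anti-CD40 by 0.81 ± 0.16 (adjusted p = 0.0382; 1 of 9 fits). With MEKi against control the difference of 1.18 ± 0.31 missed the threshold (adjusted p = 0.0535). The control tumours split by title number, with 10.73 and 10.74 in the low series and 11.43 to 12.14 in the high series, and the MEKi difference was 1.88 within the low and 0.71 within the high series.

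Igfbp4, a binding protein that inhibits IGF action until PAPPA cuts it, was at 13.07, 13.25, 12.94, 13.62 and 13.97 in control, 13.92, 13.33, 13.12 and 13.79 with anti-CD40, 14.20, 13.82, 14.24, 13.75 and 13.96 with MEKi, and 14.54, 14.37, 14.12 and 14.29 with MEKi/CD40. The MEKi/CD40 tumours lay above all control and anti-CD40 tumours, and outside the comparison that chose the genes none passed (MEKi/CD40 against anti-CD40, 0.79 ± 0.20, limma, adjusted p = 0.0571). The reported probe set is close to the top of the scale. The dimmer set 1421991_a_at had group means of 8.85 (control), 9.14 (anti-CD40), 10.14 (MEKi) and 10.70 (MEKi/CD40).

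Igfbp2, a binding protein of fetal and metabolic tissues, was at the floor in all control and anti-CD40 tumours, at 2.19 to 2.28. It left the floor in 2 of the 5 MEKi tumours, at 3.83 and 4.35, and in 2 of the 4 MEKi/CD40 tumours, at 3.94 and 4.25. No tested comparison passed. With values below 3 raised to 3, the MEKi/CD40 mean was 1.46 times and the MEKi mean 1.35 times the control mean.

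**Figure D3:**
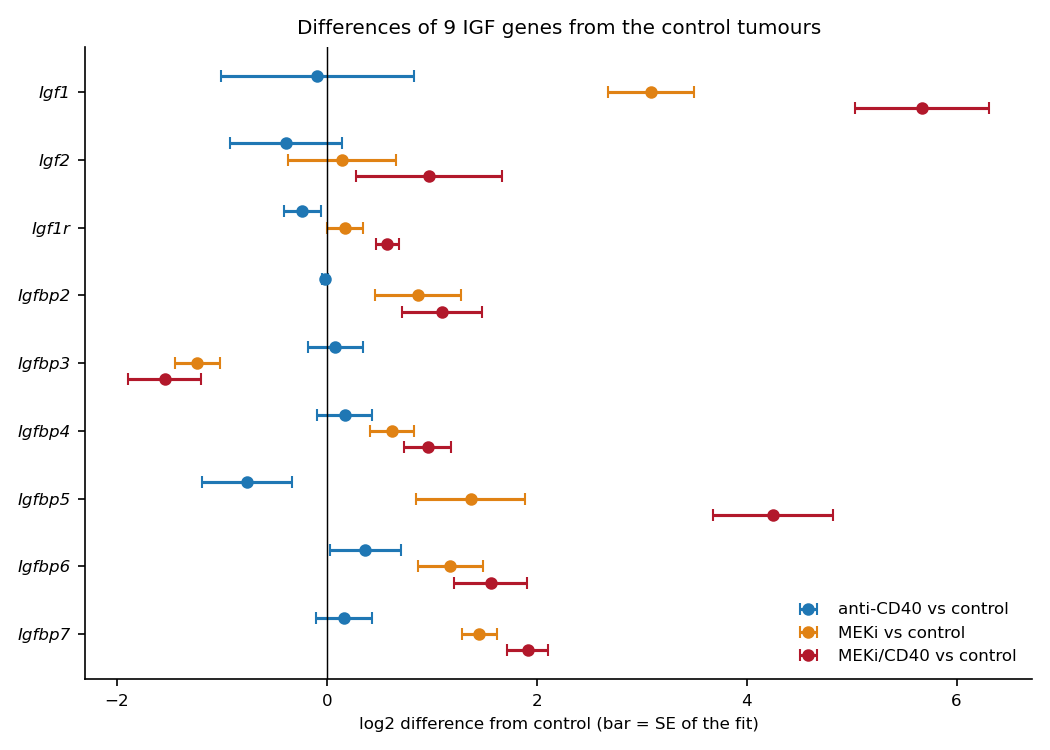
Log2 difference from control (horizontal axis, bars are the SE of the fit) of the 9 IGF genes (vertical axis) with anti-CD40, MEKi and MEKi/CD40. Igf1 (5.67) and Igfbp5 (4.25) lie farthest to the right with MEKi/CD40, and Igfbp3 (-1.54) lies left of 0. The anti-CD40 points lie between -0.76 (Igfbp5) and 0.365 (Igfbp6).

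Counted over the list, with both drugs against control 5 of the 8 members other than Igf1 were called higher, beside 5.5% of all probe sets, and 1 was called lower, beside 9.37% (14.9% in both directions). This is the comparison that chose the genes, and nothing is read from the count. With MEKi against control 1 of 8 rose (Igfbp7), beside 3.99% of all probe sets, and 1 fell (Igfbp3), beside 3.83% (7.83% in both directions). With MEKi/CD40 against anti-CD40 4 of 8 rose (Igf1r, Igfbp5, Igfbp6 and Igfbp7), beside 4.42%, and 0 fell, beside 7.19% (11.6% in both). With MEKi against anti-CD40 3 of 9 rose, beside 2.83%, and 1 fell, beside 2.26% (5.09% in both). With the title number series as a block, 0 of these 9 passed, beside 153 of all 45037 probe sets. With MEKi/CD40 against MEKi 0 of 8 passed in limma, beside 2.5% of all probe sets (0.737% higher and 1.77% lower). An unadjusted p under 0.05 was found for 4 of 8 (Igf1r, Igfbp4, Igfbp5 and Igfbp7), beside 16.8% of all probe sets. With anti-CD40 against control 0 of 8 passed, and 0 of 8 had an unadjusted p under 0.05, beside 0% of all probe sets called and 5.38% at an unadjusted p under 0.05. The groups did not overlap for 7 of the 9 members between MEKi/CD40 and control (16.8% of all probe sets), for 5 between MEKi and control (9.17%), for 7 between MEKi/CD40 and anti-CD40 (18.4%), for 6 between MEKi and anti-CD40 (10.4%), for 2, Igf1 and Igfbp5, between MEKi/CD40 and MEKi (8.93%) and for 0 between anti-CD40 and control (1.69%). Igfbp2 is among those counted between an inhibitor group and a group without the inhibitor, partly through values at the floor, which have no order. Against control the median log2 difference of the 9 members was 1.10 in the MEKi/CD40 tumours, 0.87 in the MEKi tumours and -0.01 in the anti-CD40 tumours, while the median of all probe sets was 0 in each. Probe sets at the floor hold that median near 0 and lower the shares called over all probe sets. Without those at the floor on all arrays, 23645 were left. Of these, 8932 were called with MEKi/CD40 and 6159 with MEKi against control, and 7527 with MEKi/CD40 and 4765 with MEKi against anti-CD40. These comparisons share their control tumours.

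The promoter windows of Igfbp5 and Igfbp7, 2 of the binding proteins that rose against anti-CD40, are shown because their genes stood high in the same tumours. They are the 250 bases before the RefSeq start in GRCm38.p6, both on the minus strand, at chr1:72874866-72875115 for Igfbp5 and chr5:77408046-77408295 for Igfbp7. Capitals mark matches on either strand to TATAAA, the TATA box, to GGGCGG, the GC box, or to TGANTCA, the AP-1 site.

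Igfbp5: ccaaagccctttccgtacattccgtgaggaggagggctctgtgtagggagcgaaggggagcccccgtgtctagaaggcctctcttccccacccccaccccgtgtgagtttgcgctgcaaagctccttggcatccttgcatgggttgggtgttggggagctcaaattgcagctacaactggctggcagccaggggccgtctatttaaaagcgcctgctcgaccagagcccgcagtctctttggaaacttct

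Igfbp7: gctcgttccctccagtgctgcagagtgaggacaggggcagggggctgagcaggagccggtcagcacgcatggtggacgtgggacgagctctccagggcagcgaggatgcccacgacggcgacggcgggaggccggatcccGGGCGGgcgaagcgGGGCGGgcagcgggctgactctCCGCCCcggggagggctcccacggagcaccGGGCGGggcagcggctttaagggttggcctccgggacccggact

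The Igfbp7 window held 4 GC boxes, a motif found in 32.7% of all windows, at a GC content of 74.0%. The Igfbp5 window, at 58.8%, held none of the 3 motifs. All 9 genes had a window, 13 windows in all. TATAAA, present in 12.4% of all windows, was found before Igfbp4 and Igfbp6, and the AP-1 letters in 1 of the 2 Igfbp2 windows besides Igf1.

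The rest of the pathway was read from a list of 40 genes, of which 36 had a probe set with a single symbol and 6 of these were at the floor on all arrays. With MEKi/CD40 against control 8 of the 36 rose, beside 5.5% of all probe sets, and 2 fell, beside 9.37%. With MEKi against control 5 rose, beside 3.99%, and 2 fell, beside 3.83%. With anti-CD40 against control 0 passed in limma, and 4 had an unadjusted p under 0.05, beside 5.38% of all probe sets. With MEKi/CD40 against anti-CD40 6 rose, beside 4.42%, and 1 fell, beside 7.19%. Without the 3 tumours of highest adipocyte score 0 passed, beside 407 of all 45037 probe sets. With MEKi against anti-CD40 4 rose, beside 2.83%, and 2 fell, beside 2.26%. With MEKi/CD40 against MEKi Igf2r and Akt2 rose, beside 0.737%, and the interaction was called for Igf2r, Akt2 and Tsc2, beside 2.64%. The medians of the 36 genes lay between 0 and 0.24, against 0 for all probe sets, a median that probe sets at the floor hold near 0.

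Among the receptors, Igf2r, the scavenger of IGF2, stood apart in the MEKi/CD40 tumours. It was at 9.27, 9.07, 9.47, 9.16 and 9.19 in control, 9.13, 8.91, 9.15 and 8.95 with anti-CD40, 9.47, 9.11, 9.40, 9.16 and 9.50 with MEKi and 10.20, 10.21, 10.64 and 10.00 with MEKi/CD40. All 4 MEKi/CD40 tumours were clear of the other 14, which overlapped among themselves. Igf2r rose by 1.03 ± 0.14 against control (2.04-fold, limma, adjusted p = 0.00355), by 1.23 ± 0.14 against anti-CD40 (adjusted p = 0.00539; 1.42 and 0.0923 without the 3 tumours of highest adipocyte score) and by 0.93 ± 0.15 against MEKi (adjusted p = 0.0310; 3 of 9 fits with a tumour left out). The interaction was 1.13 ± 0.17 (adjusted p = 0.00652), called in 18 of 18 fits with a tumour left out and, at 1.33 (adjusted p = 0.00713), without the 3 tumours of highest adipocyte score, but not in the low title numbers alone (1.11, adjusted p = 0.260). Insr, the insulin receptor, rose by 0.58 ± 0.14 with MEKi/CD40 against control (adjusted p = 0.0312), in 3 of 9 fits with a tumour left out.

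The growth hormone axis controls IGF1 synthesis. Ghr, its receptor, stood 1.27 ± 0.36 above control with MEKi/CD40, short of the threshold (limma, adjusted p = 0.0572). Socs2, a feedback inhibitor induced by growth hormone signalling, rose by 1.29 ± 0.32 against control (adjusted p = 0.0341; 1 of 9 fits with a tumour left out) and by 1.70 ± 0.31 against anti-CD40 (adjusted p = 0.0187; 3 of 8). Jak2, the kinase of the growth hormone receptor, rose by 0.53 ± 0.08 with MEKi/CD40 (adjusted p = 0.00639) and by 0.35 ± 0.07 with MEKi (adjusted p = 0.0268) against control. With MEKi/CD40 against control 4 of the 6 genes of this class were not called, namely Ghr, Cish, Stat5a and Stat5b. The means in control and MEKi/CD40 were 8.14 and 8.26 for Stat5a, 8.85 and 8.92 for Stat5b, and 4.66 and 5.70 for Cish.

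Among the regulators of the binding proteins, Pappa was at the floor on 17 of 18 arrays and Pappa2 on all. Stc1, a stanniocalcin that inhibits PAPPA, fell by 1.31 ± 0.25 with MEKi/CD40 (limma, adjusted p = 0.0223) and by 1.24 ± 0.27 with MEKi (adjusted p = 0.0470) against anti-CD40, in 3 of 8 and 1 of 9 fits with a tumour left out. None of the 6 genes of this class passed against control.

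Downstream of the receptor the genes of the PI3K and AKT arm went in both directions. Pik3r1, the regulatory p85 subunit of PI3K, rose by 1.57 ± 0.32 with MEKi/CD40 (limma, adjusted p = 0.0161) and by 0.85 ± 0.19 with MEKi (adjusted p = 0.0320) against control, in 9 of 9 and 4 of 10 fits with a tumour left out. Pik3cb, a catalytic subunit, fell by 1.70 ± 0.44 with MEKi/CD40 (adjusted p = 0.0399) and by 0.98 ± 0.18 with MEKi (adjusted p = 0.0190), in 1 of 9 and 8 of 10 such fits. Foxo1, a transcription factor that AKT keeps out of the nucleus, rose by 0.77 ± 0.12 with MEKi/CD40 (adjusted p = 0.00591) and by 0.56 ± 0.08 with MEKi (adjusted p = 0.00774), in 9 of 9 and 10 of 10 fits with a tumour left out. Foxo3, a related factor, rose by 0.49 ± 0.12 with MEKi (adjusted p = 0.0478), in 2 of 10 such fits. The kinases themselves moved little. Akt2 rose by 0.29 ± 0.04 with MEKi/CD40 (adjusted p = 0.00264), or stood 0.10 higher as the mean of its probe sets (adjusted p = 0.110), while Akt1 fell by 0.19 ± 0.04 with MEKi (adjusted p = 0.0287), in 4 of 10 fits with a tumour left out. Of the adaptors, Grb10, an inhibitor of insulin and IGF receptors, rose by 0.55 ± 0.11 with MEKi/CD40 (adjusted p = 0.0149) and by 0.32 ± 0.08 with MEKi (adjusted p = 0.0439). Grb2, which links receptors to RAS, fell by 0.33 ± 0.08 with MEKi/CD40 (adjusted p = 0.0377), in 1 of 9 such fits. The substrates Irs1 and Irs2 passed in no comparison, and Irs2 was at the floor on 15 arrays.

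**Figure D4:**
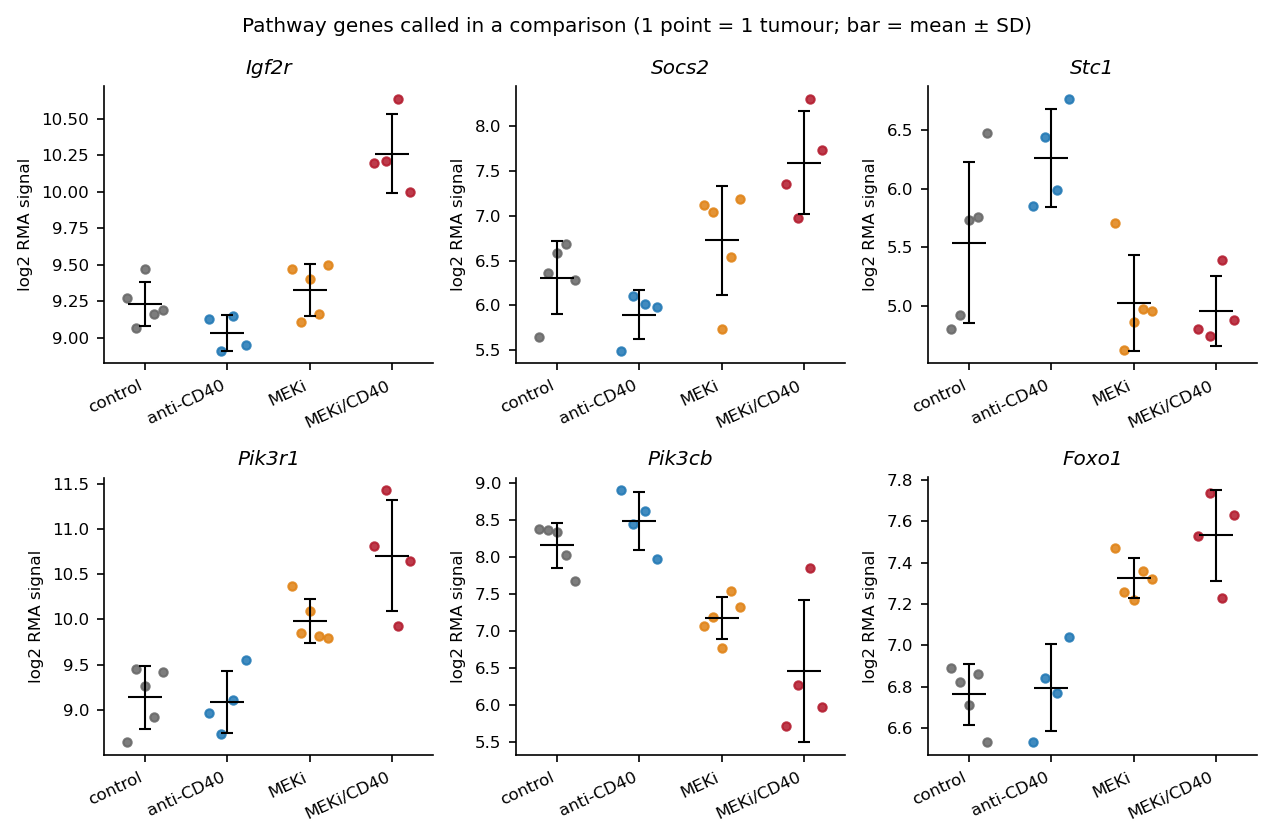
Log2 RMA signal (vertical axis, a separate scale for each gene) of 6 pathway genes in each tumour of the 4 groups (horizontal axis), with mean ± SD as bars. The MEKi/CD40 values of Igf2r (10.00 to 10.64) lie above all other tumours (8.91 to 9.50), and in Stc1 and Pik3cb both inhibitor groups lie below all anti-CD40 tumours.

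Cell type markers moved with the treatment as well. Of the 10 fibroblast markers 9 were called higher with MEKi/CD40 (5.5% of all probe sets), 5 with MEKi (3.99%) and 0 with anti-CD40 (0%) against control (limma). Against anti-CD40, 6 were called higher with MEKi/CD40 (4.42%) and 3 with MEKi (2.83%). Between MEKi/CD40 and MEKi, 1 was called higher (0.737%). None of the 10 was at the floor throughout a group. The mean score of the list had the same order of the inhibitor groups above the others as Igf1, Igfbp5, Igfbp6 and Igfbp7, and its part in their values was not tested. Of the 8 macrophage markers 2 were called higher with MEKi/CD40 (5.5% of all probe sets) and 1 lower (9.37%), against control, and 3 were called lower with MEKi (3.83%). Their score was 8.36 to 8.68 in control, 7.99 to 8.54 with anti-CD40, 7.82 to 8.26 with MEKi and 8.90 to 10.63 with MEKi/CD40. All MEKi tumours thus scored below all control tumours, the reverse of Igf1. Cd163 and Lyve1 were at the floor in all control and anti-CD40 tumours, which weighs on a mean of log2 signals. The log2 of the summed macrophage marker signal overlapped, at 13.79 to 14.17 in control and 13.17 to 14.63 with MEKi/CD40. The median difference of the 8 markers between these groups was 0.0067. MEKi/CD40 tumour 3 had the highest score, Igf1 (10.72) and Igf2r (10.64). Tumour 4 of that group scored 9.79 with Igf1 at 8.93, and tumour 2 scored lower, 9.54, with Igf1 higher, at 10.38. The part of macrophages in these values was not tested. Adipocyte markers were not the same in all tumours of a group, and MEKi/CD40 tumour 1, with a score of 3.58, had Igf1 at 8.54 and Igfbp5 at 9.64. The log2 of the summed adipocyte marker signal was at least 10.36 in the MEKi/CD40 tumours and at most 9.61 in control. Without the 3 tumours of highest adipocyte score the log2 difference between MEKi/CD40 and control was 5.66 for Igf1, 4.14 for Igfbp5, 1.75 for Igfbp7 and 1.58 for Igfbp6. These values are a description from the comparison that chose the genes, with only MEKi/CD40 tumours 1 and 3 left. The part of adipocytes in them was not tested.

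**Figure D5:**
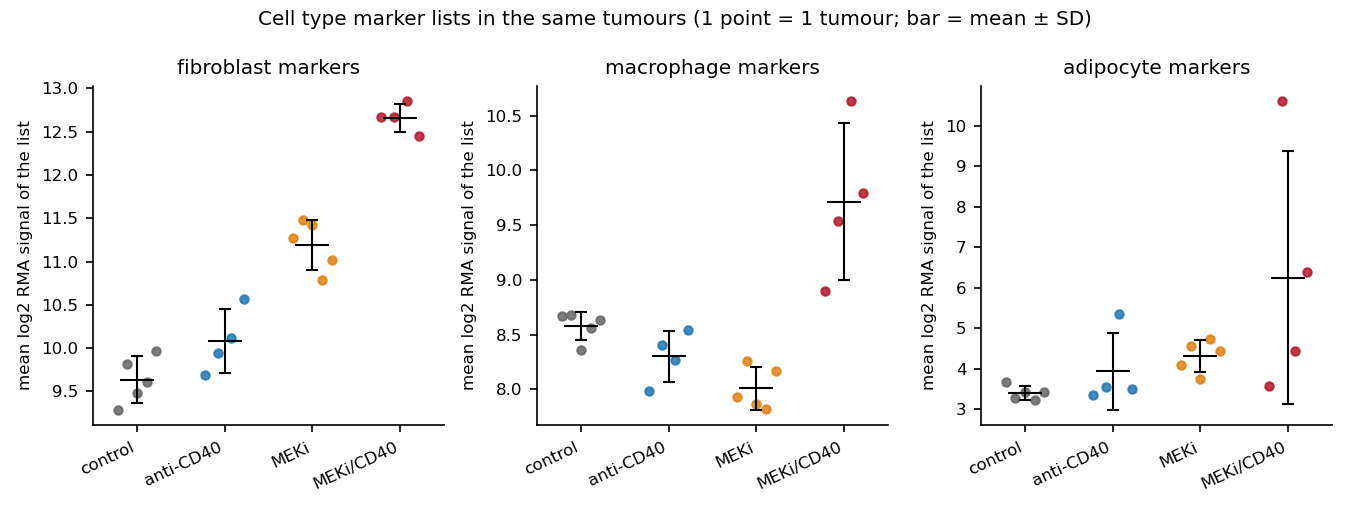
Mean log2 RMA signal of fibroblast, macrophage and adipocyte marker lists (vertical axes) in each tumour of the 4 groups (horizontal axes), with mean ± SD as bars. The fibroblast score is 12.45 to 12.85 with MEKi/CD40 against 9.29 to 9.97 in control, and the adipocyte score reaches 10.6 in a single MEKi/CD40 tumour.

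The genes most like the members were sought by Pearson r over the 18 arrays, which also share the group differences, with the members left out. The search covered 10499 genes above the floor on at least 4 arrays for Igf1, and 10268 above it on at least 9 arrays for 7 other members. Igfbp2 was left out because it lay at the floor on most arrays. For Igf1 they were Ccdc80 (r = 0.967, Spearman rho = 0.943), Mfap5 (0.946, 0.886), Itih5 (0.943, 0.946), Bgn (0.943, 0.860), Ptx3 (0.942, 0.849) and Rarres2 (0.939, 0.872). Mfap5 and Bgn encode matrix proteins, and Ccdc80 and Itih5 secreted proteins. For Igfbp7 the most alike were Ccn5 (0.963), Cdh11 (0.957) and Islr (0.955), for Igfbp6 Ak1 (0.962), Cyb5r3 (0.955) and Vasn (0.953), and for Igfbp4 Ak1 (0.941), Medag (0.941) and Gnb5 (0.936). Igfbp5 was most like Adamts5 (0.934), Aldh2 (0.934) and Igf2r (0.931). Igfbp3 was most like Slc29a1 (0.921), Chtf18 (0.915) and Atad2 (0.908), the latter pair being genes of the replicating nucleus. Igf1r reached at most 0.861 (Glg1) and Igf2 at most 0.793 (Gp1bb).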

How the data were processed

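RNA of 18 MC38 tumour pieces, 1 per mouse, was measured on single-colour Affymetrix Mouse430_2 arrays. The values used are the deposited log2 signals, which the authors made from the scans by RMA in Chipster (versions not given in the sources used here). They ran from 2.16 to 16.34, and 34.5% equalled the lowest value, which is unusual for plain RMA, so the background step is uncertain. The number of arrays limits the precision.

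Of 45101 probe sets, 64 controls were set aside and 45037 tested, without a filter on signal. Of these, 34945 carried 1 symbol, 932 several and 9160 none in the platform annotation, and 18032 of 18193 genes matched GRCm38.p6 by gene ID. Each gene is represented by its brightest probe set (mean of the 18 arrays), with _x_at sets avoided. Each pair of groups was fitted in limma 3.58.1 (R 4.3.3), after the two-group empirical Bayes test of the methods, and the interaction over all 18 arrays. P-values were adjusted by Benjamini-Hochberg over all probe sets, and called means an adjusted p under 0.05. Residual degrees of freedom were 6 to 8 for pairs and 14 for the interaction. "Rose" and "fell" are used for such calls. The fits were tested on simulated data. Members and lists were chosen with earlier results of these data known. All 9 members are named, and of the other pathway genes those called in a comparison or with a direct role. A marker score averages the log2 signals of a list's measured genes. Alternatives were other normalizations, floors, fits, probe set choices, blocks, title number series, adipocyte scores, and each tumour left out. Promoter windows are from RefSeq.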

Additional observations from a re-analysis of the deposited data

Results flagged for a closer look

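In 6 of 56 sets of a gene and a treatment group, 1 tumour lay far from the others of its group, a distance that chance alone gives in about 5% of sets. Igf1r was at 7.67 in control tumour 1, against 8.06 to 8.15 in the other control tumours. Igfbp5 was at 7.40 in control tumour 3, against 5.26 to 5.71. Igfbp7 was at 12.04 in control tumour 5, against 11.36 to 11.54, and at 12.98 in MEKi/CD40 tumour 3, against 13.59 to 13.70. Insr was at 7.78 in anti-CD40 tumour 1, against 8.29 to 8.36, and Irs1 at 11.06 in MEKi/CD40 tumour 3, against 11.68 to 11.76.

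The effect of MEKi on 4 genes differed between tumours with and without anti-CD40 by the interaction in limma over 18 arrays, with log2 values of 3.64 for Igfbp5 (adjusted p = 0.0188), 1.13 for Igf2r (adjusted p = 0.00652), 0.39 for Akt2 (adjusted p = 0.0137) and 0.55 for Tsc2 (adjusted p = 0.0473). The interaction includes the difference between MEKi/CD40 and control that chose the list, so the call of Igfbp5 is not independent of that choice. Without the 3 tumours of highest adipocyte score the adjusted p was 0.0529 for Igfbp5, 0.00713 for Igf2r, 0.0665 for Akt2 and 0.0782 for Tsc2, and none of the 4 passed in the low title number series alone. Tsc2 also missed the threshold with quantile normalization (0.0589), with values below 3 raised to 3 (0.0510) and with the series as a block (0.0522), and passed in 4 of 18 fits with a tumour left out.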

How the results depend on the processing

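Counts below give the members called, then the pathway genes called. MEKi/CD40 against control (6 and 10) gave 2 and 1 in the low title number series alone, 2 and 3 without the 3 tumours of highest adipocyte score, and 2 and 5 with that score as a covariate. MEKi against control (2 and 7) gave 0 and 0 in the low series alone, 0 and 0 in the high series alone (an alternative added after seeing the data), 1 and 3 with the score as a covariate, 4 members without the probe sets at the floor, and 2 pathway genes with a trended, robust variance. MEKi/CD40 against anti-CD40 (4 and 7) gave 0 and 0 without the 3 tumours and 2 and 2 with the covariate, and 12, 14 and 17 pathway genes with equal 75th percentiles, without the probe sets at the floor and in 1 fit of all 18 arrays. MEKi/CD40 against MEKi (0 and 2) gave 1 member with quantile normalization, with equal 75th percentiles, without the probe sets at the floor, in 1 fit of all 18 arrays and with the mean of a gene's probe sets. Its pathway count was 1 with that mean, 1 with the covariate, and 0 with the trended variance, the title number series as a block, the low series alone and without the 3 tumours. MEKi against anti-CD40 (4 and 6) gave 0 and 0 with the trended variance, with the series as a block and in the low series alone, and 1 and 1 without the 3 tumours. The interaction (1 and 3) gave 0 and 0 in the low series alone and 0 members without the 3 tumours. Anti-CD40 against control gave 0 and 0 in every alternative. The number of all 45037 probe sets called moved with the setting as well. For MEKi against control it was 3525 in the main fit, 46 in the low series alone and 9 in the high series alone. Without the probe sets at the floor on all arrays it was 6159 of the 23645 left. For MEKi against anti-CD40 it went from 2292 to 66 with the trended variance. For MEKi/CD40 against anti-CD40 it went from 5231 to 8996 in 1 fit of all 18 arrays. Settings that drop tumours leave fewer arrays, and otherwise the cause was not tested.

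With the replicate number as a block, the counts were 0 and 0 for MEKi/CD40, MEKi and anti-CD40 against control, for MEKi/CD40 against MEKi and for MEKi against anti-CD40, 0 and 1 for MEKi/CD40 against anti-CD40, and 1 and 2 for the interaction. Few probe sets of any kind were called in this setting. Of all 45037 it was 113 for MEKi/CD40, 0 for MEKi and 0 for anti-CD40 against control. It was 0 for MEKi/CD40 against MEKi, 3 for MEKi and 1276 for MEKi/CD40 against anti-CD40, and 707 for the interaction. The replicate numbers do not pair the tumours: deviations from the group means correlated by -0.35 to 0.28 in 25 pairs of tumours with the same number and by -0.43 to 0.45 in 96 pairs with different numbers.

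With a tumour left out, the counts ranged from 3 to 6 and 6 to 10 (MEKi/CD40 against control), 2 to 3 and 1 to 6 (MEKi against control), 2 to 4 and 2 to 12 (MEKi/CD40 against anti-CD40), 0 to 0 and 0 to 3 (MEKi/CD40 against MEKi), 0 to 3 and 0 to 3 (MEKi against anti-CD40) and 1 to 1 and 2 to 4 (interaction). The member count fell to 3 against control without control tumour 3, MEKi/CD40 tumour 2 or tumour 4, and to 2 against anti-CD40 without anti-CD40 tumour 2 or MEKi/CD40 tumours 1, 2 or 4. MEKi against anti-CD40 kept 3 member calls without MEKi tumour 4 and at most 1 without any other tumour. The pathway count of 12 came without MEKi/CD40 tumour 3.

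Of the values of single genes under an alternative, 991 were counted as unchanged, 199 lost the call, 27 gained it, 9 without a test moved by more than the spread and 5 turned their sign. For tested values unchanged means the same direction and the same side of the threshold. For values given as a description it means a move smaller than the SD within groups, and the threshold was not looked at. These are Igf1 outside MEKi against anti-CD40, and all members between MEKi/CD40 and control. None of the values that turned was called: Igfbp2 was 0 with values below 3 raised to 3 and Igfbp3 -0.0046 with the covariate (anti-CD40 against control), and the interaction was -0.06 for Igfbp4 and -0.68 for Igfbp6 in the low series and -0.0247 for Igfbp6 without the 3 tumours. With a tumour left out, the sign also turned for Igf2 with MEKi (-0.071 to 0.544) and anti-CD40 (-0.62 to 0.01), Igfbp3 (-0.0613 to 0.309) and Igfbp7 (-0.0393 to 0.387) with anti-CD40 against control, Igfbp2 between MEKi/CD40 and MEKi (-0.0713 to 0.542), and the interactions of Igfbp2 (-0.0583 to 0.555) and Igfbp6 (-0.17 to 0.18).

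The series as a block and the low series alone could not be fitted for MEKi/CD40 against anti-CD40, where all tumours are of the low series. MEKi against control holds none of the 3 tumours, and the interaction already uses all 18 arrays. Signal at the floor limits the values of Igfbp2 and of the pathway genes at the floor.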
